A study of Homo sapiens with 5 samples.

Results

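The histone genes of the HCT116 cell line, a human colorectal carcinoma line, were examined in poly(A)-selected RNA after knockdown of the transcription factor ELK4. Members were all genes whose symbol began with HIST1H to HIST4H, or had the form of the replacement histone symbols H1F, H2AF and H3F. This gave 87 of 20026 genes. The HIST prefix marked 71 genes of the replication-dependent clusters, and the other 16 genes were replacement histones, which are made outside of S phase as well.

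The data comprised 5 RNA-seq samples. The 2 control samples (pLKO in the labels) carried the pLKO.1 vector, and the 3 knockdown samples carried the hairpins shELK4_1, shELK4_2 and shELK4_3. These sample names are also the names of the 3 hairpin oligonucleotides, and each sample was taken to carry the hairpin of its name, which no source used here states outright. According to the study's methods, hairpins were delivered by lentivirus and stably transduced cells were selected with puromycin. There was then 1 library for each hairpin, and nothing in the labels says that the samples came from separate cultures, so p-values measure only the spread between these samples. A response to loss of ELK4 and a difference between vector and hairpin cells cannot be told apart in this design. Expression was given as FPKM, the number of fragments scaled by transcript length and by the mapped reads of the sample, and the summed FPKM per sample ran from 309139 to 319870. The number of reads per sample was not given. ELK4 itself stood at 8.62 and 7.60 FPKM in the controls and at 3.14, 2.82 and 2.44 FPKM in the shELK4_1, shELK4_2 and shELK4_3 samples, and it fell by 1.26 ± 0.12 (SE) on the log2(FPKM + 1) scale (limma, adjusted p = 0.0290). With 1 sample left out its difference was -1.34 to -1.18, and it passed the adjusted threshold only when that sample was shELK4_2. All 6 epithelial markers were present in all samples, while COL1A1 (3.10 to 4.21 FPKM) was the only one of 7 leukocyte, fibroblast and endothelial markers above 0.02 FPKM.

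Replication-dependent histones package newly copied DNA, and their genes lie in clusters that are transcribed in S phase. Their mRNA normally ends just after a short stem-loop in place of a poly(A) tail. The stem-loop binding protein SLBP holds this structure during 3′ end cutting, translation and decay. Replacement histones mostly have ordinary polyadenylated mRNA from scattered genes and enter chromatin throughout the cell cycle, so poly(A) selection captures both classes very unequally. A minority of cluster genes are known to give polyadenylated transcripts as well, for example when cells leave the cycle.

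The stem-loop was found within 100 bases after the stop codon in 69 of the 71 replication-dependent genes (97.2%) on GRCh38, and in 1 of the 16 replacement genes, H2AFX. It was not found in HIST1H2AG and HIST1H2AK. All 11 replication-dependent genes that passed the expression limit described below had it. The annotated H2AFX gene model runs 1024 genomic bases past its stem-loop. Whether the H2AFX reads came from a longer, tailed form was not tested. The sequences are shown because they mark where the normal, tail-less mRNA of each of these genes would end; capitals mark the 16 bases of stem and loop, and lower case the 5 bases on each side.

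HIST1H1C, chr6:26055739-26055764, minus strand: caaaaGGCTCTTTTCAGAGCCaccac
HIST1H2AC, chr6:26124664-26124689, plus strand: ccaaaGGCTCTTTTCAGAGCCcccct
HIST1H2BC, chr6:26123467-26123492, minus strand: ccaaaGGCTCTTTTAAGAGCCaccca
HIST1H2BD, chr6:26158582-26158607, plus strand: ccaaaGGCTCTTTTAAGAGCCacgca
HIST1H2BJ, chr6:27132316-27132341, minus strand: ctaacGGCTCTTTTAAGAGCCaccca
HIST1H2BK, chr6:27146361-27146386, minus strand: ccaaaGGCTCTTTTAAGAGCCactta
HIST1H3H, chr6:27810511-27810536, plus strand: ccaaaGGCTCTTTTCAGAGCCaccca
HIST2H2AA3, chr1:149842218-149842243, minus strand: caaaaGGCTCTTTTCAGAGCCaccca
HIST2H2AC, chr1:149887386-149887411, plus strand: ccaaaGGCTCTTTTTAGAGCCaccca
HIST2H2BE, chr1:149886183-149886208, minus strand: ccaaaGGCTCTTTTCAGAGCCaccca
HIST3H2A, chr1:228457364-228457389, minus strand: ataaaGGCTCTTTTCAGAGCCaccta
H2AFX, chr11:119094893-119094918, minus strand: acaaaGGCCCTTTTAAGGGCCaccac

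Most stem-loops had the same stem. The form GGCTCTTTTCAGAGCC stood in 41 replication-dependent genes, of which 6 passed the limit, and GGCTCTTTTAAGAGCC in 10, of which 4 passed. The form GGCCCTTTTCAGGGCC stood in 10 genes, none of which passed.

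Few replication-dependent genes were seen in the poly(A) RNA. Of the 71 genes, 25 were listed at 0 in all 5 samples, 35 were above 0 but under the limit, and 11 reached 1 FPKM in at least 2 samples, the limit for testing. HIST1H2BJ and HIST1H3H passed this limit only through the controls, and HIST2H2BE and HIST2H2AA3 through the controls and 1 hairpin sample. By family, 1 of 6 linker histone H1 genes passed, 4 of 17 H2A genes, 5 of 18 H2B genes, 1 of 15 H3 genes and 0 of 15 H4 genes. By cluster, 7 of 55 HIST1 genes, 3 of 12 HIST2 genes, 1 of 3 HIST3 genes and 0 of 1 HIST4 gene passed. Of the 16 replacement genes, 11 passed and 5 (H1FNT, H1FOO, H2AFB1, H2AFB2 and H2AFB3) were listed at 0 in every sample.

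Many of the 35 genes under the limit had values that a few fragments would give. Each sample was first divided by a factor of 1 to 1.065, picked so that ratios of the low values came close to those of small whole numbers. In 26 of 32 histone genes with low values, the scaled FPKM of all samples were then whole multiples (within 0.1) of 1 step. This made 1 fragment worth between 0.160 and 0.329 FPKM depending on the gene. The fit to whole multiples is therefore partly built in, and the fragment numbers are the smallest that fit. Cufflinks values are estimates and need not be counts, and HIST1H2AD, for example, had values as low as 1.44e-05 FPKM. Read as fragments, HIST1H3E, an H3 gene, had 5 and 6 fragments in the controls and 3, 1 and 2 in the shELK4_1, shELK4_2 and shELK4_3 samples. The 26 genes together had 37 and 34 fragments in the controls and 23, 29 and 28 in the hairpin samples. Of the 35 genes, 24 had a lower and 11 a higher mean in the knockdown. Of the 10780 genes that passed the limit, 5585 had a lower fitted mean. In FPKM, 7 had all hairpin samples below both controls (HIST1H2AG, HIST1H2AK, HIST1H2AM, HIST1H2BN, HIST1H3E, HIST2H3D and HIST4H4), and HIST1H2AH and HIST1H3A had all of them above. The shares of all tested genes were 21% below and 19.1% above. The 35 genes did not pass the limit for testing, so these shares are not their own background. In fragments HIST1H2AM and HIST1H2AH were ties, since 1 hairpin sample and 1 control or more had 1 fragment each. The highest value of any such gene was 1.304 FPKM.

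**Figure D1:**
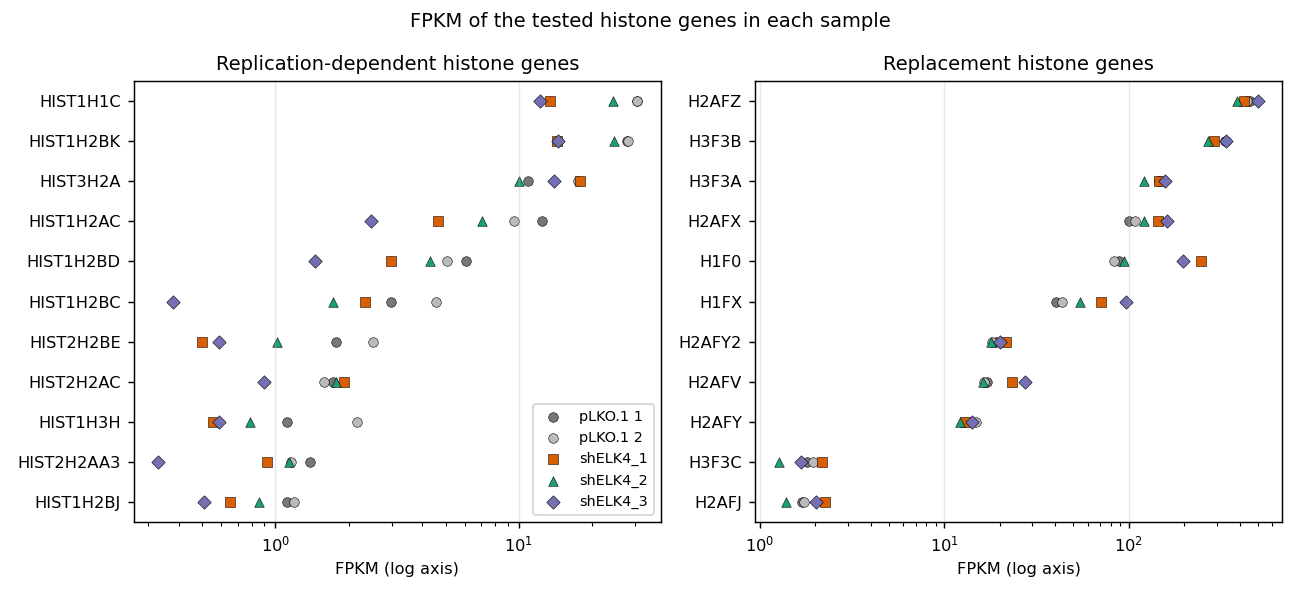
FPKM (log axis) of the 11 replication-dependent (left) and 11 replacement (right) histone genes that passed the limit, with 1 point for each of the 2 pLKO.1 and 3 shELK4 samples. HIST1H1C and HIST1H2BK lead the left panel at 12.2 to 30.7 FPKM, with the controls at the right and shELK4_2 nearest to them, while H2AFZ and H3F3B lead the right panel at 271 to 505 FPKM with overlapping groups.

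Among the tested genes, the replication-dependent histones were mostly lower in the knockdown and the replacement histones were not. All 11 replication-dependent genes had a lower fitted mean in the knockdown, and 8 of them did so at an unadjusted p under 0.05 (HIST2H2BE, HIST1H3H, HIST1H2AC, HIST1H1C, HIST1H2BJ, HIST1H2BK, HIST1H2BC and HIST1H2BD), where 8.14% of all 10780 tested genes were lower at that limit. None was higher, where 8.08% of all genes were. In 9 of the 11 all 3 hairpin samples lay below both controls, against 21% of all tested genes, and in none did they lie above both, against 19.1%. Of the 11 replacement genes, 3 were higher at an unadjusted p under 0.05 (H1FX, H2AFX and H1F0) and none was lower. All 3 hairpin samples lay above both controls in these 3 genes and below both in 1, H2AFY. The median difference between knockdown and controls was -0.67 on the log2(FPKM + 1) scale for the replication-dependent genes, 0.074 for the replacement genes and -0.0086 for all tested genes. For the 4 genes that needed the controls to pass the limit, the limit itself favours a lower knockdown value. For HIST1H2BJ and HIST1H3H, which passed only through the controls, it puts all hairpin samples below both controls. Of the other 7 replication-dependent genes, 5 were lower at p under 0.05 (HIST1H2AC, HIST1H1C, HIST1H2BK, HIST1H2BC and HIST1H2BD), and the median was -0.81. The same 5 of these 7 had all hairpin samples below both controls.

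No histone gene passed the Benjamini-Hochberg adjustment over all tested genes (limma, 0 of 22 with an adjusted p under 0.05, where 18 genes or 0.167% of all did). The differences below are therefore given as values, with the adjusted p of the limma fit. The counts also leaned on the 2 controls: without either pLKO.1 sample 3 replication-dependent genes were lower at p under 0.05, when 20 histone genes could be tested. Calls were fewer among all genes too: 2.79% were lower without pLKO.1 sample 1 and 2.09% without pLKO.1 sample 2. The replication-dependent medians were -0.70 and -0.72 in these fits. Without pLKO.1 sample 1 no replacement gene was higher at that limit. Without shELK4_1 the genes H1F0, HIST1H2BK and HIST1H2BD missed it, and without shELK4_3 the genes H1F0 and HIST1H2BK did. Without shELK4_2 all 11 stayed past it, 95 genes passed the adjustment, and H1F0, HIST1H1C and HIST1H2BK were among them. The study's own table of differentially expressed genes, from another fit, lists HIST2H2BE, HIST1H2BC, HIST1H2BD and HIST1H3E as lower. Of these, HIST2H2BE and HIST1H2BC had an adjusted p under 0.05 in that table, whose test the study does not name. The study's methods require a fold change of at least 2, so histone genes with smaller changes could not be listed there.

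HIST1H1C, which encodes linker histone H1.2, had the highest mean FPKM of the replication-dependent histones over the 5 samples. HIST1H2BK was close to it, with values under those of HIST1H1C in both controls and over those of HIST1H1C in the 3 hairpin samples. HIST1H1C stood at 30.5 and 30.7 FPKM in the controls and at 13.4, 24.3 and 12.2 FPKM in the shELK4_1, shELK4_2 and shELK4_3 samples. All hairpin samples lay below the controls, with shELK4_2 closest to them. The knockdown mean was 54.3% of the control mean, and the log2 difference was -0.90 ± 0.27 (SE; adjusted p = 0.194). Of the other 5 genes of the family, HIST1H1A, HIST1H1B, HIST1H1D and HIST1H1T were listed at 0 in every sample, and HIST1H1E stood at 0.256 to 1.04 FPKM.

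Of the H2A genes, HIST1H2AC and HIST3H2A were the most abundant, and they differed in their pattern. HIST1H2AC stood at 12.5 and 9.59 FPKM in the controls and at 4.66, 7.05 and 2.47 FPKM in the hairpin samples. The groups did not overlap, the knockdown mean was 42.8% of the control mean, and the log2 difference was -1.14 ± 0.33 (SE; adjusted p = 0.183). HIST3H2A, the H2A gene of the small cluster on chromosome 1q, stood at 10.9 and 17.6 FPKM in the controls and at 17.9, 10.05 and 14.01 FPKM in the hairpin samples. Its groups overlapped fully, and its log2 difference was -0.022 with a 95% interval of -0.66 to 0.62. HIST2H2AC stood at 1.73 and 1.59 FPKM against 1.91, 1.78 and 0.896 FPKM, with a log2 difference of -0.096 and a 95% interval of -0.56 to 0.37. HIST2H2AA3 stood at 1.39 and 1.16 FPKM against 0.924, 1.14 and 0.328 FPKM (log2 difference -0.37 ± 0.21, SE; adjusted p = 0.420). All of its 50-base words also occur in an identical neighbouring copy, so its value is shared between them and is uncertain, and 23.4% of those of HIST2H2AC are shared as well.

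In the 5 tested H2B genes each hairpin sample was lower than either control, a pattern that 21% of all tested genes had. HIST1H2BJ met the limit for testing only through the controls, and HIST2H2BE through the controls and 1 hairpin sample. HIST1H2BK was the most abundant of them, at 27.8 and 28.1 FPKM in the controls and at 14.3, 24.6 and 14.5 FPKM in the hairpin samples (63.7% of control; log2 difference -0.67 ± 0.23, SE; adjusted p = 0.238). As with HIST1H1C, the shELK4_2 sample lay close to the controls and the other two lay well under them. Of its 50-base words, 57.2% also occur in another annotated gene, so its level is uncertain.

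HIST2H2BE had the smallest p of the histone genes. It stood at 1.78 and 2.52 FPKM in the controls and at 0.501, 1.01 and 0.588 FPKM in the hairpin samples. The knockdown mean was 32.6% of the control mean, and the log2 difference was -0.89 ± 0.17 (SE; adjusted p = 0.0997). HIST1H2BD stood at 6.04 and 5.06 FPKM against 2.97, 4.32 and 1.46 FPKM (52.5% of control; log2 difference -0.81 ± 0.30, SE; adjusted p = 0.266). HIST1H2BC stood at 2.99 and 4.56 FPKM against 2.34, 1.72 and 0.381 FPKM (39.2% of control; log2 difference -1.02 ± 0.37, SE; adjusted p = 0.254). In both genes shELK4_3 was the lowest sample. HIST1H2BJ, the least abundant, stood at 1.12 and 1.19 FPKM against 0.648, 0.855 and 0.511 FPKM (58.1% of control; log2 difference -0.37 ± 0.12, SE; adjusted p = 0.207).

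The core histones H3 and H4 were close to absent from the replication-dependent signal. HIST1H3H was the only tested H3 gene, at 1.11 and 2.17 FPKM in the controls and at 0.557, 0.783 and 0.586 FPKM in the hairpin samples (39.1% of control; log2 difference -0.66 ± 0.18, SE; adjusted p = 0.168). The controls differed from each other more than the hairpin samples did. HIST1H3H met the limit for testing only through the controls, so its groups could not overlap. The 15 H3 genes together summed to 3.80 and 5.93 FPKM in the controls and to 3.29, 2.64 and 2.04 FPKM in the hairpin samples. The 15 H4 genes summed to 1.80 and 2.02 FPKM in the controls and to 0.803, 0.523 and 2.63 FPKM in the hairpin samples, so that the groups overlapped.

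The 3 replacement genes that were higher included both linker histones seen. H1F0 encodes H1.0, the linker histone known to accumulate in resting and differentiated cells. It stood at 88.4 and 83.6 FPKM in the controls and at 246, 94.9 and 198 FPKM in the shELK4_1, shELK4_2 and shELK4_3 samples. The shELK4_2 sample lay just above the controls and the other two far above them. The knockdown mean was 209% of the control mean, and the log2 difference was 0.95 ± 0.37 (SE; adjusted p = 0.283). H1FX, the linker variant H1x, stood at 40.6 and 43.4 FPKM against 70.8, 54.4 and 97.1 FPKM (176% of control; log2 difference 0.77 ± 0.22, SE; adjusted p = 0.187). H2AFX, the H2A variant that is phosphorylated next to DNA breaks, stood at 100.5 and 109 FPKM against 144, 121 and 160.3 FPKM (136% of control; log2 difference 0.43 ± 0.13, SE; adjusted p = 0.200).

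H2AFZ and H3F3B, the most abundant histone mRNAs, showed no such difference. H2AFZ, which encodes the H2A.Z found at promoters, stood at 453 and 438 FPKM in the controls and at 421, 387 and 505 FPKM in the hairpin samples. The groups overlapped, and the 95% interval of the log2 difference ran from -0.33 to 0.26. Its partner gene H2AFV stood at 17.1 and 16.4 FPKM against 23.2, 16.1 and 27.2 FPKM, with an interval of -0.14 to 0.84. H3F3B and H3F3A both encode the replacement histone H3.3. H3F3B stood at 331 and 336 FPKM against 290.4, 271 and 338 FPKM (interval -0.43 to 0.11), and H3F3A at 147 and 147 FPKM against 145, 121 and 158 FPKM (interval -0.36 to 0.24). Of the 50-base words of H3F3A, 20.8% occur in other genes.

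The macroH2A genes H2AFY and H2AFY2 encode large H2A variants linked to repressed chromatin. H2AFY stood at 14.1 and 14.8 FPKM against 12.9, 12.2 and 14.1 FPKM (interval -0.37 to 0.096), and H2AFY2 at 19.1 and 18.1 FPKM against 21.7, 17.9 and 20.1 FPKM (interval -0.17 to 0.34). H2AFJ (1.39 to 2.26 FPKM over all samples) and H3F3C (1.26 to 2.18 FPKM) were the least abundant tested replacement genes, and their groups overlapped.

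**Figure D2:**
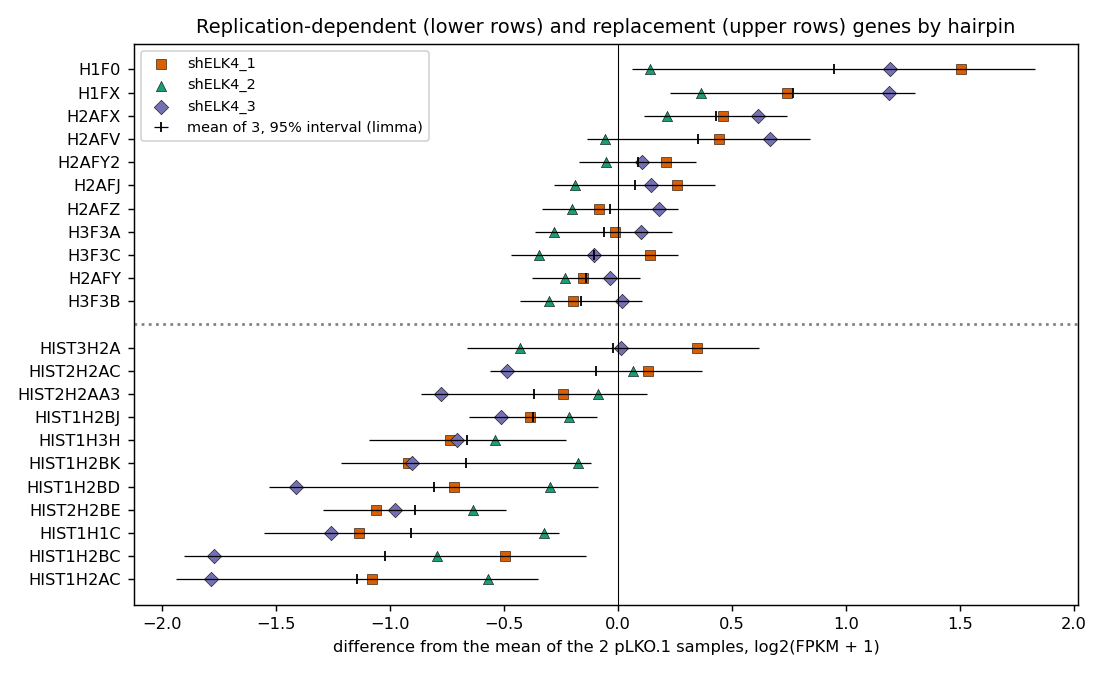
Difference of each hairpin sample (coloured points) from the mean of the 2 pLKO.1 samples, in log2(FPKM + 1), for the 11 replacement (upper rows) and 11 replication-dependent (lower rows) genes; the tick and line give the mean of the 3 hairpins and its 95% interval from limma. The intervals of 8 lower rows lie left of 0 and those of 3 upper rows right of 0, and shELK4_2 is the point nearest to 0 in 9 of the 11 lower rows.

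The 3 hairpins differed in how far the 2 classes parted. In the shELK4_1 sample the median difference from the control mean was -0.72 for the replication-dependent and 0.21 for the replacement genes, a gap of -0.93 on the log2 scale. In the shELK4_3 sample the medians were -0.90 and 0.15, a gap of -1.05. In the shELK4_2 sample they were -0.32 and -0.19, a gap of -0.13. Of the 11 replication-dependent genes, 7 reached 1 FPKM in 2 or more hairpin samples. Their medians were -0.72, -0.32 and -1.26 in shELK4_1, shELK4_2 and shELK4_3. The medians over all tested genes stayed between -0.022 and 0.012 in the 3 samples. With 1 library per hairpin, these differences between hairpins have no replicate check and were not tested.

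Replication-dependent genes were below the control mean in 9, 10 and 10 of 11 cases in the shELK4_1, shELK4_2 and shELK4_3 samples, with 1 to 2 genes above it in each. Some of these 11 needed the controls to pass the limit, which favours lower hairpin values. Such counts were not made over all tested genes for each hairpin. In the fit over all samples, 5585 of 10780 tested genes had a lower mean in the knockdown. Replacement genes were above the control mean in 7, 3 and 9 of 11 cases. The hairpin nearest to the controls was shELK4_2 in 9 of 11 replication-dependent genes, 5 of 11 replacement genes and 30.8% of all tested genes. Of the 7 replication-dependent genes that reached 1 FPKM in 2 or more hairpin samples, shELK4_2 was nearest in 5. ELK4 itself was not nearest to the controls in this sample: at 2.82 FPKM it lay between shELK4_1 (3.14 FPKM) and shELK4_3 (2.44 FPKM).

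Summed over all 71 genes, replication-dependent histones amounted to 108 and 115 FPKM in the controls and to 66.6, 84.5 and 55.2 FPKM in the shELK4_1, shELK4_2 and shELK4_3 samples. The means were 112 ± 4.98 (SD, n = 2) and 68.8 ± 14.7 FPKM (SD, n = 3), so that the knockdown stood at 61.6% of control. HIST1H1C and HIST1H2BK made up 41.6% to 57.9% of this sum. Without HIST1H1C it was 77.7 and 84.6 FPKM against 53.2, 60.2 and 43.0 FPKM. The 60 genes under the limit summed to 10.4 and 11.02 FPKM in the controls and to 6.49, 6.87 and 7.30 FPKM in the hairpin samples, 64.4% of control, and here shELK4_2 lay between the other two. Replacement histones summed to 1214 and 1209 FPKM in the controls and to 1379.8, 1098 and 1521 FPKM in the hairpin samples. The replication-dependent share of all histone FPKM was 8.18% and 8.70% in the controls and 4.61%, 7.15% and 3.50% in the hairpin samples. In RNA from whole cultures, fewer cells in S phase and less histone mRNA per cell cannot be told apart from histone genes alone. The 24 S-phase genes counted below had a median log2 difference of 0.080. By sample it was 0.070, -0.079 and 0.23 in shELK4_1, shELK4_2 and shELK4_3. The part of S phase in the histone values was not tested.

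The linker histones showed the 2 classes side by side. The summed H1 level was 159.8 and 159 FPKM in the controls and 331, 174 and 307 FPKM in the hairpin samples. The share of HIST1H1C in it was 19.1% and 19.3% in the controls and 4.05%, 13.97% and 3.97% in the hairpin samples, and that of H1F0 was 55.3% and 52.7% against 74.4%, 54.6% and 64.3%. H1FX kept 21.4% to 31.6% in all samples. The ratio of H1F0 to HIST1H1C was 2.90 and 2.73 in the controls and 18.4, 3.91 and 16.2 in the hairpin samples. Poly(A) RNA holds only that part of the HIST1H1C mRNA that carries a tail or was captured without one, so the ratio is not that of the total mRNA.

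**Figure D3:**
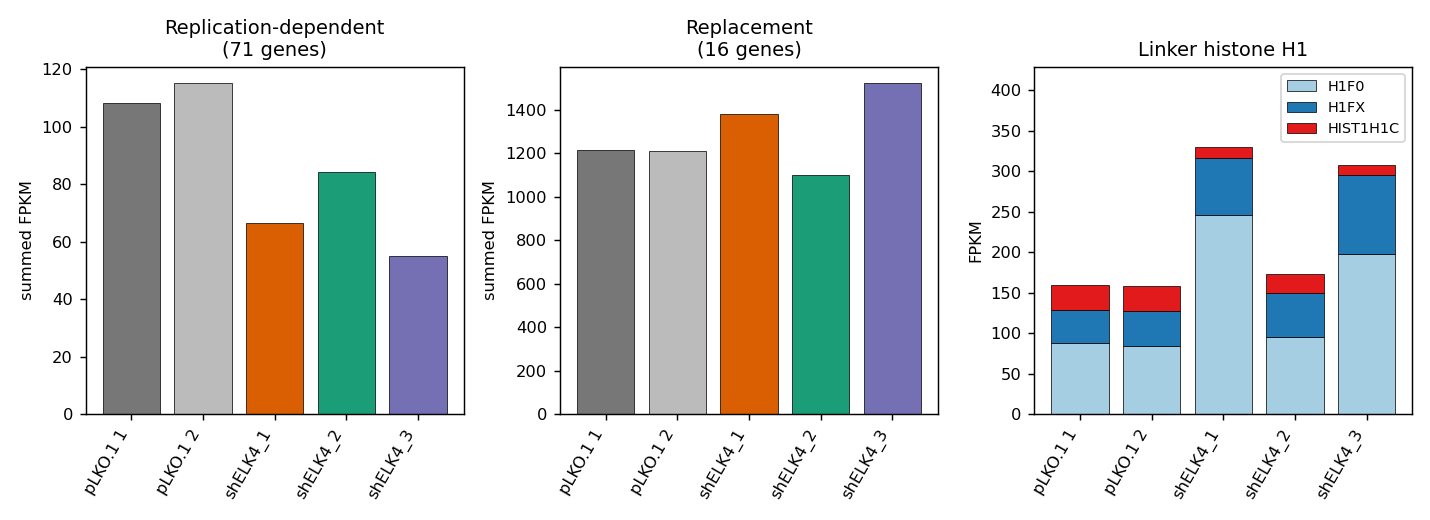
Summed FPKM of the 71 replication-dependent genes (left) and the 16 replacement genes (middle), and the FPKM of 3 linker histone genes stacked (right), with 1 bar for each sample and all axes from 0. The left bars stand at 108 and 115 FPKM in the controls and at 55.2 to 84.5 FPKM in the hairpin samples, and the HIST1H1C segment on the right is smallest in the shELK4_1 and shELK4_3 samples, where the H1F0 segment is tallest.

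Cluster genes often lie head to head and share the DNA between their start sites. Among the histone genes, 13 such pairs had starts within 1000 bases of each other. HIST1H2AC and HIST1H2BC start 219 bases apart, and both were lower in all hairpin samples (42.8% and 39.2% of control). HIST2H2AC and HIST2H2BE start 236 bases apart, and they differed: HIST2H2BE stood at 32.6% of control and HIST2H2AC at 92.3%. The difference between the partners was not tested. HIST1H2BK and HIST1H2AH start 251 bases apart. HIST1H2AH stood at 0.188 and 0.199 FPKM in the controls and at 0.376, 0.996 and 0.200 FPKM in the hairpin samples, a few fragments in each. HIST1H2BJ and HIST1H2AG start 248 bases apart, and HIST1H2AG stood at 0.493 and 0.875 FPKM against 0, 0.346 and 0.347 FPKM.

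The 200 bases before the start site are shown for 4 genes of these results, 2 H2B genes from different head-to-head pairs, the linker histone that was lower and a replacement linker histone that was higher. They are RefSeq sequences on GRCh38.p14, 5′ to 3′ along the gene, and capitals mark the motifs named in the next paragraph.

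HIST2H2BE, chr1:149886683-149886882, minus strand: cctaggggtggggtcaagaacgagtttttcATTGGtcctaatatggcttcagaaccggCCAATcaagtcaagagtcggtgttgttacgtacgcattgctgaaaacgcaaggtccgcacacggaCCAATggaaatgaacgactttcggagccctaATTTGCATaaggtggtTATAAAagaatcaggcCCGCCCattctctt
HIST1H2BC, chr6:26123927-26124126, minus strand: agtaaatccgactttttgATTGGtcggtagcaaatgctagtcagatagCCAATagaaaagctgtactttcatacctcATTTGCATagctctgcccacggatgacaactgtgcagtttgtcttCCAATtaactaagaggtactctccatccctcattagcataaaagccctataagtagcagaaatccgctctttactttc
HIST1H1C, chr6:26056471-26056670, minus strand: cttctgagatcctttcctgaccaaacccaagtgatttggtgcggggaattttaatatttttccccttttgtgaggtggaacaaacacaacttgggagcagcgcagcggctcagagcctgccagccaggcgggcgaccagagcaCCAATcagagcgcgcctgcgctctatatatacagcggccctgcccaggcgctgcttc
H1FX, chr3:129316287-129316486, minus strand: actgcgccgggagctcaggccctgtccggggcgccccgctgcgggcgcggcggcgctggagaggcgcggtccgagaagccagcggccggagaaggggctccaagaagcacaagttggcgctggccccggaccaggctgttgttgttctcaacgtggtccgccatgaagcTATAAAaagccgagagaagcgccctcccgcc

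HIST2H2BE held the octamer ATTTGCAT, the motif bound by OCT1 and known from H2B promoters, 46 bases before its start, between a CCAAT box at 77 and a TATA box at 30 bases. HIST1H2BC held the octamer 123 bases before its start. HIST1H1C held a CCAAT box at 57 bases, and H1FX a TATA box at 31 bases. Motifs were searched on both strands in 300 bases around the start (250 before, 50 after), each on its own so that overlaps count. The octamer stood in 14 of 18 replication-dependent H2B promoters (77.8%), in 26 of 66 replication-dependent promoters (39.4%), in 6 of the 11 tested ones (54.5%) and in 2.19% of the promoters of 27305 genes. CCAAT stood in 84.8% of replication-dependent and 85.7% of replacement promoters and in 39.7% of all. TATAAA stood in 68.2%, 28.6% and 14% of them in the same order. CCGGAAG holds the GGA(A/T) core of ETS factors such as ELK4 within a longer sequence. CCGGAAG stood in 0 of the 11 tested replication-dependent promoters, in 5 of 66 in all (7.58%) and in 12.2% of all promoters. Among the tested replacement genes it stood in 1 of 9, H2AFY. The shorter core was not marked or counted, and it does occur, for example, in the HIST2H2BE and HIST1H1C sequences shown. GGGCGG, the GC box, stood in 28.8% of replication-dependent, 57.1% of replacement and 48.3% of all promoters. These matches describe the letters in the window and say nothing of binding.

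The annotated gene models of the replication-dependent genes end at very different places. In 18 of the 69 genes with a stem-loop, GENCODE release 44 has a transcript that runs at least 100 genomic bases past it, as a polyadenylated form would. Of these 18, 7 passed the limit (38.9%), 4 were at 0 in all samples, and the median of their mean FPKM was 0.427. Of the other 51 genes, 4 passed (7.84%), 21 were at 0, and the median was 0.104 FPKM. The 7 were HIST1H2AC, HIST1H2BC, HIST1H2BD, HIST1H2BJ, HIST1H3H, HIST2H2BE and HIST3H2A, with models that end between 769 and 37155 genomic bases beyond the loop. HIST1H1C and HIST1H2BK, the most abundant genes, were among the 4 whose models end within 5 bases of it. Such models were annotated partly from cDNA of poly(A) RNA, so the 2 measures are not independent, and whether the reads came from the longer forms was not tested here.

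Genes that act on histones were counted in 3 lists, to be read against the 8.14% of all tested genes that were lower and the 8.08% that were higher at an unadjusted p under 0.05. Of 20 genes for the transcription and 3′ processing of histone mRNA, 0 were lower and 1 was higher at that limit, with a median log2 difference of 0.021. The 1 was CASP8AP2, a factor needed for 3′ end cutting, at 3.65 and 3.61 FPKM in the controls and at 4.63, 4.40 and 4.47 FPKM in the hairpin samples (adjusted p = 0.249). NPAT, the coactivator of histone genes in S phase, stood at 3.61 and 3.23 FPKM against 4.09, 4.14 and 3.81 FPKM (adjusted p = 0.391). SLBP stood at 63.5 and 69.4 FPKM against 64.0, 62.0 and 69.5 FPKM, and its groups overlapped.

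Of 26 histone chaperone genes, 1 was lower and 1 higher at an unadjusted p under 0.05 (8.14% and 8.08% of all genes were), and the median was 0.065. DAXX, which deposits H3.3, stood at 28.7 and 30.3 FPKM against 23.9, 23.7 and 24.8 FPKM (adjusted p = 0.199). CABIN1, a partner of the H3.3 chaperone HIRA, stood at 2.35 and 2.198 FPKM against 3.05, 2.72 and 3.11 FPKM (adjusted p = 0.248). Of 24 S-phase genes, 0 were lower and 1 was higher, the primase subunit PRIM1 (17.9 and 19.1 FPKM against 22.8, 24.7 and 20.1 FPKM; adjusted p = 0.301), and the median was 0.080. The S-phase median of the shELK4_2 sample was -0.079, against 0.070 for shELK4_1 and 0.23 for shELK4_3. Of the 6 epithelial markers, KRT8, KRT18, KRT19 and CDX2 were lower at an unadjusted p under 0.05, with all hairpin samples below both controls, and CDH1 and EPCAM overlapped between the groups. KRT18 had the largest difference, at 639 and 634 FPKM against 397, 216 and 303 FPKM. The part of these markers in the histone values was not tested.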

How the data were processed

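Poly(A)-selected RNA of 5 HCT116 samples was sequenced by the authors on an Illumina HiSeq instrument. The deposited values are FPKM per gene, which the authors calculated with Cufflinks and scaled to the mapped reads of each sample. The submitters' processing notes name Trimmomatic 0.36, HISAT2 2.0.5, Cufflinks 2.2.1 and HTSeq 0.9.1. The genome build, annotation and strand setting are not given in the sources used here, so genes with overlapping or antisense partners are uncertain. The gene list held 20030 entries. After removal of 4 entries with 2 repeated names it held 20026 genes, 27 of them with names that had become dates.

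The limma test (version 3.58.1, R 4.3.3) covered the 10780 genes that reached 1 FPKM in 2 or more samples, on the log2(FPKM + 1) scale (trended empirical Bayes, condition as the only term, all 5 samples, two-sided, Benjamini-Hochberg adjustment over all tested genes). Differences are on this scale, which understates those of low genes. The fit was tested on simulated data. Depth is not given, and precision rests on the spread between samples. Intervals are 95% intervals of the fit.

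Members and gene lists were chosen with earlier results of these data known. Named genes were ELK4, members with an unadjusted p under 0.05, the 5 most abundant tested replication-dependent genes, all tested replacement genes, head-to-head partners, list genes with p under 0.05, NPAT and SLBP. HIST2H2AA3, HIST1H1E and the genes under the limit were named after their values were seen.

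All 87 symbols were matched to current ones through RefSeq synonyms, and 80 had a RefSeq promoter. Stem-loops and gene models are from GRCh38 with GENCODE release 44, and not from the authors' build. Shared sequence is the share of a gene's 50-base words that occurs in other annotated transcripts. A list of 9 RNAs without a poly(A) tail had no gene in the files. The alternatives tried were another pseudocount, other FPKM limits, 2 scalings, a replicate block, group weights and leaving out each sample.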

Additional observations from a re-analysis of the deposited data

How the results depend on the processing

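The 8 lower replication-dependent and 3 higher replacement genes kept p under 0.05 under median-of-ratios scaling, quantile normalization, group weights and without shELK4 replicate 2. A pseudocount of 0.1 lost HIST1H2BC and moved the replication-dependent median of shELK4_3 to -1.32. With no FPKM limit 57 histone genes were tested among 16223, and 8 of the 11 calls remained (H1F0, HIST1H2BC and HIST1H2BD were lost). Replication-dependent genes were then lower in 12 cases and higher in 1 (HIST1H3A, 0 FPKM in both controls), with a median of -0.15 over all samples, -0.22 in shELK4_1 and -0.13 in shELK4_3. Most of the added genes are near 0, where a pseudocount of 1 shrinks differences. ELK4 was at -1.26 but missed the adjusted threshold, and limma called 0 genes at an adjusted p under 0.05, with 1143 lower and 1127 higher unadjusted. With a pseudocount of 0.1 and no limit, ELK4 was at -1.51, and 0 genes passed adjustment (1112 lower and 1135 higher unadjusted). In that fit 12 replication-dependent genes were lower and 1 was higher, and 2 replacement genes were higher and 0 lower. The replication-dependent median of shELK4_2 was -0.73. A weight for each group gave 413 genes with an adjusted p under 0.05, among them H1FX, HIST1H1C and HIST2H2BE, and the cause of this count was not tested. A mean FPKM of at least 1 left HIST1H2BJ untested and kept the other 10 calls.

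Leaving out 1 sample at a time gave ELK4 differences from -1.34 to -1.18, of which only the fit without shELK4 replicate 2 passed adjustment, and 0 to 95 genes with an adjusted p under 0.05. The 95 came without shELK4 replicate 2. With shELK4 replicate 1, 2 or 3 left out, the calls that remained numbered 8, 11 and 9 of 11. Of all tested genes, 9.27%, 11.1% and 10.6% were then lower and 8.98%, 11.6% and 8.6% higher at an unadjusted p under 0.05. No replication-dependent gene was higher in these fits. At most 1 replacement gene was lower, and at most 4 were higher. In the 2 fits that left out a control, the single remaining pLKO.1 sample was assumed to vary like the hairpin samples. Signs turned only for genes with p over 0.05. Leaving out 1 sample, HIST3H2A ran from -0.34 to 0.30 (0.18 without shELK4 replicate 2), H2AFZ from -0.14 to 0.050, H3F3A from -0.15 to 0.046, H3F3C from -0.23 to 0.018, H2AFJ from -0.020 to 0.20 and HIST2H2AC from -0.21 to 0.099. Under quantile normalization HIST3H2A was at 0.0013 and H2AFZ at 0.050.

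The labels do not describe samples of the same number as paired. Their deviations from the group means correlated at 0.0776 for number 1 and 0.0225 for number 2 over 10780 genes. The 2 controls deviate from their mean by equal and opposite amounts, so these correlations are not independent. Whether samples of the same number were processed together cannot be told from them. With the replicate block all 11 calls remained, the replication-dependent median was -0.55, and HIST2H2AC turned to 0.099.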
